A study of Homo sapiens with 5 samples.

Results

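The 10 genes TGFBR1, TGFBR2, TGFBR3, SMAD6, SMAD7, BAMBI, ID1, ID2, ID3 and ID4 were chosen by name as receptors, inhibitors and targets of TGF-beta and BMP signalling, and all 10 were found among the 19716 genes with a read in at least 1 of the 5 RNA-seq libraries. Every library came from HEK293T, an established human embryonic kidney cell line carrying the SV40 large T antigen. In 4 groups the cells received a fusion of dCas9 (nuclease-dead Cas9, which is brought to DNA by guide RNAs and does not cut it), a blue fluorescent protein (BFP) and a further domain, together with the 5 guide RNAs T1 to T5 against the promoter of PLAU, which encodes urokinase (uPA). The further domain was the catalytic domain of DNMT1, the maintenance DNA methyltransferase (dCas9-BFP-DNMT1), that of DNMT3A (dCas9-BFP-DNMT3A) or DNMT3B (dCas9-BFP-DNMT3B), the enzymes that set new methylation marks, or else EGFP, a fluorescent protein in place of an enzyme (dCas9-BFP-EGFP). The control group received pUC19, a cloning plasmid, with neither fusion nor guides. Transfection used X-tremeGENE 9 with 1 ug of plasmid in all groups, and the cells were collected 48 hours later. Per the labels the RNA came from BFP-positive cells sorted by FACS. pUC19 carries no BFP, and how the control cells were collected was not given in the sources used here, so transfection with a fusion, guides and sorting cannot be told apart in any comparison with pUC19. Each group had 1 library, the fusions were transiently expressed and differ in construct, and no value below has a replicate of its own group.

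The pathway works as follows. TGF-beta ligands bind the type II receptor TGFBR2, often handed over by the co-receptor betaglycan (TGFBR3), and TGFBR2 then activates the type I receptor TGFBR1, which phosphorylates SMAD2 and SMAD3. BMP ligands use their own receptor pairs and act through SMAD1, SMAD5 and SMAD9, and both branches share SMAD4. The inhibitory SMADs, SMAD6 and SMAD7, and the pseudoreceptor BAMBI restrain the signal and are themselves induced by it. ID1 to ID4 are classical BMP targets whose proteins bind E proteins (TCF3, TCF4 and TCF12) and keep them off DNA. In HEK293T cells TGF-beta and BMP reporters are widely used, so most parts of the pathway are known to be present.

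None of the 10 genes was a target of the guides in these cells. TGFBR3 was the other gene for which guides were designed in the study, but its guides were not given to the cells sequenced here. The guides are shown because they separate the DNA that was addressed from the genes described here. The last 5 bases next to the PAM, used below as a seed, are in capitals. The 5 uPA guides each matched chromosome 10 of GRCh37 at 1 place followed by an NGG PAM, and these places lie between chr10:75670761-75671112, in the PLAU promoter.
uPA-T1: gtgagcgttgcggaaGCACG
uPA-T2: gagccgggcgggagaGGGAG
uPA-T3: gagtcaaggcgccccGTCCC
uPA-T4: gcccggggatctcagGACCG
uPA-T5: gggacaggtggacccTGGCC
The 3 TGFBR3 guides each matched chromosome 1 of GRCh37 at 1 place, on the minus strand, which is the strand of the gene.
TGFBR3-T1: gcgagggagggcgagTGCGC
TGFBR3-T2: gagtgaaggagggcaGTCGG
TGFBR3-T3: gagtccccagcgggtCCGGA
Counted from the first transcribed base of TGFBR3 as +1, T1 lies at -40 to -21, T2 at 47 to 66 and T3 at 127 to 146.

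Depth ranged from 26.2 mega-reads (M) in the EGFP library to 36.1 M in pUC19, with 27.2 to 29.4 M in the other libraries, and the highest total was 1.38 times the lowest. All 10 genes had reads in every library, the fewest being 75 reads of SMAD6 in the DNMT3B library. Levels are given in TPM (transcripts-per-million, reads divided by transcript length and scaled to the same sum in every library). The 95% intervals are exact Poisson intervals for levels and exact binomial ones for ratios, and they cover counting error only. The libraries fitted their labels, since DNMT1, DNMT3A and DNMT3B reached 14582, 16745 and 33141 TPM in the library of their own fusion and at most 175, 21.3 and 45.1 TPM in the others. PLAU was at 2.48 TPM in pUC19 and at 0.033 to 0.181 TPM in the 4 fusions. The HEK293 markers CKB, NEFM, INA, PAX2 and IRS4 were at 1 TPM or more in every library, but not evenly. CKB was at 1692 TPM in pUC19 and 875 to 1218 TPM in the fusions. IRS4 was at 396 TPM in pUC19 and 66.3 to 76.5 TPM in the fusions, and NEFM at 193 and 34.3 to 60.2 TPM. INA went the other way, at 39.0 TPM in pUC19 and 55.4 to 85.4 TPM in the fusions. PAX2 was at 7.55 TPM in pUC19 and 6.08 to 7.72 TPM in the fusions. The part of these differences in the results below was not tested. Of the markers of other cell types, 1 of 6 for fibroblasts, 2 of 5 for blood, 0 of 4 for endothelium and 0 of 4 for hepatocytes were at 1 TPM or more in every library, and their sums were 4.56 to 8.91, 9.40 to 14.0, 0.942 to 1.29 and 0.797 to 1.85 TPM.

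**Figure D1:**
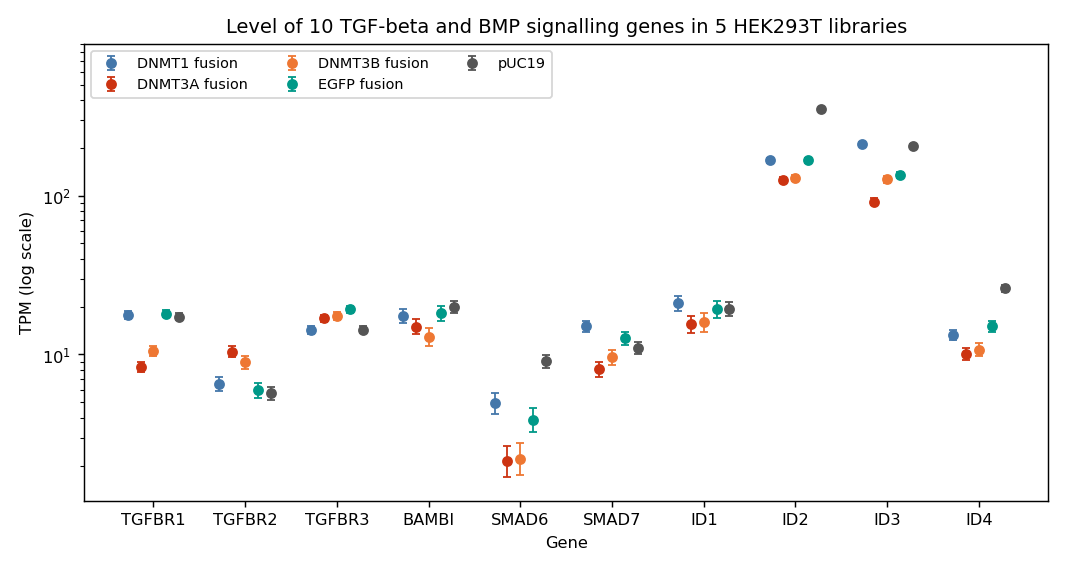
Level of each gene (TPM, log axis) in the 5 libraries, 1 point a library with its 95% counting interval. ID2, ID4 and SMAD6 were highest in pUC19, while TGFBR1 was lower and TGFBR2 higher in the DNMT3A and DNMT3B libraries than in the other libraries.

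The question put to the 4 fusions was how far cells that express them differ from cells that received only pUC19. In each comparison the reads of 2 libraries were set against each other with a two-sided exact binomial test, adjusted by Benjamini-Hochberg over all genes, and calls needed both an adjusted p of at most 0.001 and a difference of 2-fold or more in TPM + 0.1. Such a test compares the 2 libraries and not the conditions, and the 4 comparisons share the pUC19 library. Against pUC19, 1 of the 10 genes was called lower in the DNMT1 library (3.67% of all genes tested were), 5 in DNMT3A (5.01% of all genes), 3 in DNMT3B (4.37%) and 2 in EGFP (3.13%). None was called higher, where 1.61%, 4.44%, 4.51% and 2.65% of all genes were. ID2 was called in all 4 fusions, SMAD6 in 3, ID4 in 2, and TGFBR1 and ID3 in DNMT3A. BAMBI, SMAD7, ID1, TGFBR2 and TGFBR3 were called in none.

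The fusions were then treated as 1 arm of 4 libraries against pUC19 in a quasi-likelihood fit across all genes (edgeR, 16001 genes), where the spread among the 4 constructs stands in for the missing replicates. None of the 10 genes passed an adjusted p of 0.05, where 0.644% of all genes passed lower and 0.0937% higher. At an unadjusted p under 0.05 there were 3 (ID2, ID4 and SMAD6), where 2879 of the 16001 genes tested were, and DESeq2 passed 2 (ID2 and ID4). ID2 was 1.19 lower on the log2 scale (SE 0.22) with an adjusted p of 0.0546 by edgeR, ID4 was 1.04 lower (SE 0.26, adjusted p = 0.0934) and SMAD6 was 1.40 lower (SE 0.44, adjusted p = 0.155). Without the DNMT1 library ID2 was 1.30 lower and passed (adjusted p = 0.0482). In bulk RNA fewer cells expressing a gene and less RNA per cell cannot be told apart.

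**Figure D2:**
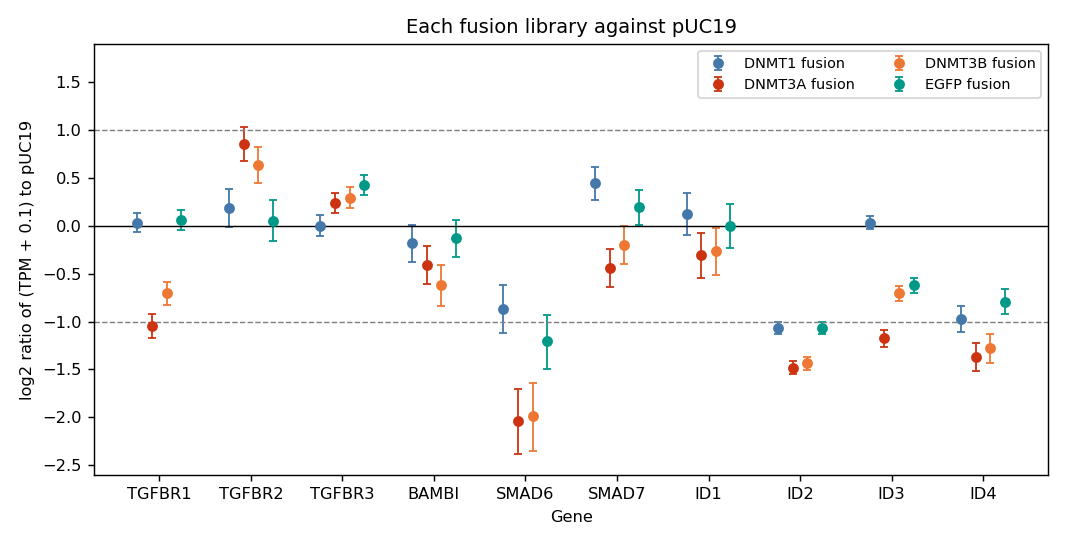
Log2 ratio of TPM + 0.1 in each fusion library to pUC19, with 95% counting intervals, for the 10 genes. Dashed lines mark a 2-fold change, and the points of ID2 lie at or beyond the lower line in all 4 fusions while those of TGFBR3 lie at or above 0.

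The fusions were also compared among themselves, under the same guides, transfection and sort. A fit of the DNMT3A and DNMT3B libraries against DNMT1 and EGFP (edgeR, 15332 genes, 2 libraries an arm) called 4 of the 10 genes, all lower: TGFBR1, SMAD6, SMAD7 and ID2. Over all genes 4.15% were called lower and 6.90% higher. At an unadjusted p under 0.05 there were 8 of the 10, all but TGFBR3 and ID1, where 28.8% of all genes were, and TGFBR2 was the only gene of the 10 with a positive log2 fold change. Their log2 fold changes had a median of -0.47, where the median over all genes tested was -0.01. No call was left when either the DNMT3A or the DNMT3B library was taken out. That leaves 1 library in the arm, with a spread taken from the other arm. Without any 1 of the 4 libraries the log2 fold change was -1.15 to -0.82 for TGFBR1 and -1.30 to -0.82 for SMAD6. It was -0.89 to -0.50 for SMAD7 and -0.51 to -0.38 for ID2.

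**Figure D3:**
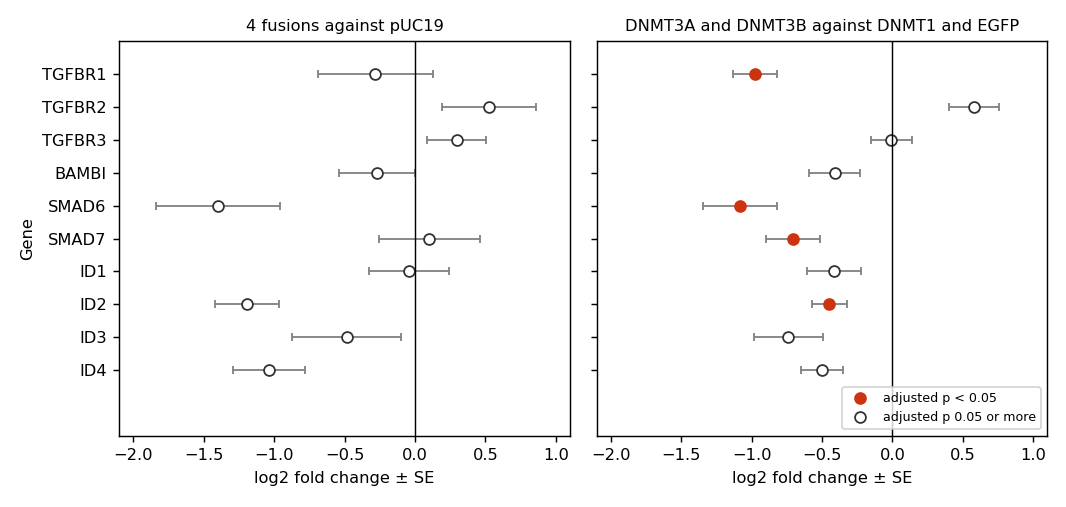
Log2 fold change with its standard error for each gene in the fit of the 4 fusions against pUC19 (left) and of the DNMT3A and DNMT3B libraries against DNMT1 and EGFP (right). Filled points passed an adjusted p of 0.05, which were 0 genes on the left and 4 on the right.

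Of the receptors, TGFBR1 was lower in the DNMT3A and DNMT3B libraries than in DNMT1 and EGFP, while the log2 fold change of TGFBR2 was positive and did not pass. TGFBR1 (GRCh37 chr9:101866320-101916474, plus strand) was at 17.7 TPM in DNMT1, 8.33 in DNMT3A, 10.6 in DNMT3B, 18.1 in EGFP and 17.3 in pUC19. The DNMT3A and DNMT3B values lie below the other values, which differ among themselves by less than their counting intervals. Against pUC19 the log2 ratio was -1.05 in DNMT3A (2.07-fold lower, interval -1.17 to -0.92, exact binomial test with Benjamini-Hochberg adjusted p = 1.75e-67) and -0.70 in DNMT3B, against 0.04 in DNMT1 and 0.06 in EGFP. The DNMT3A call is close to the 2-fold limit and ended with a pseudocount of 1 TPM, where the log2 ratio was -0.97. DNMT3A was also called lower than EGFP for TGFBR1, at a log2 ratio of -1.11, the only call of the 10 genes there (2.03% of all genes were called lower), and lower than DNMT1, at -1.08. For TGFBR1 the fit of DNMT3A and DNMT3B against DNMT1 and EGFP gave a log2 fold change of -0.98 (SE 0.15, edgeR adjusted p = 0.00797), and it kept a negative sign, -1.15 to -0.82, without any 1 of the 4 libraries.

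The TGFBR1 transcript is poor in G and C, at 38.8%, which put it at percentile 9.83 of the genes with a matched transcript. The log2 ratio between libraries moved with GC content across 12632 genes, with a Spearman rho of 0.28 for DNMT1 against pUC19, 0.28 for DNMT3A, 0.24 for DNMT3B and 0.03 for EGFP, a description across genes that share their libraries. Among the comparisons of fusions with a lower TGFBR1, rho was 0.32 for DNMT3A against EGFP, where TGFBR1 differed by -1.11, 0.27 for DNMT3B against EGFP (-0.76), 0.08 for DNMT3A against DNMT1 (-1.08) and 0.02 for DNMT3B against DNMT1 (-0.74). The part of this trend in the TGFBR1 values was not tested beyond the correction that follows. With a correction for GC content and length the fold change of TGFBR1 in the 4-library fit was -0.88 (edgeR adjusted p = 0.00786).

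TGFBR2 (chr3:30648093-30735634, plus strand), the receptor that binds the ligand, was at 6.51 TPM in DNMT1, 10.4 in DNMT3A, 8.95 in DNMT3B, 5.95 in EGFP and 5.72 in pUC19. It was highest in the DNMT3A and DNMT3B libraries, whose intervals do not overlap those of the other libraries. The log2 ratio to pUC19 was 0.85 in DNMT3A and 0.64 in DNMT3B, short of 2-fold, and 0.18 and 0.06 in DNMT1 and EGFP. Among the fusions the fit gave a log2 fold change of 0.58 (SE 0.18, edgeR adjusted p = 0.0662), and DESeq2 gave an adjusted p of 0.0425. The ratio of TGFBR1 to TGFBR2 in TPM was thus 0.800 in DNMT3A and 1.18 in DNMT3B, against 2.73 in DNMT1, 3.03 in EGFP and 3.03 in pUC19.

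TGFBR3 (chr1:92145900-92371892, minus strand), the co-receptor, was at 14.3 TPM in DNMT1, 16.9 in DNMT3A, 17.5 in DNMT3B, 19.2 in EGFP and 14.3 in pUC19. It was highest in the EGFP library, whose interval overlaps that of DNMT3B, and the DNMT1 and pUC19 values overlapped. Its largest log2 ratio to pUC19 was 0.43, in EGFP (interval 0.32 to 0.53), and it was 0.24 in DNMT3A and 0.29 in DNMT3B. The fold change in the fit of the fusions was -0.01 (SE 0.15, edgeR adjusted p = 0.979), the closest to 0 of the 10 genes, and its sign turned under several alternatives. The bases before the start of TGFBR3 are shown because guide T1 of the study, in capitals, falls inside them although it was not used in these cells. They were read from RefSeq (GRCh38.p14, chr1:91886152-91886401, minus strand), and T1 again lies at -40 to -21.
TGFBR3 upstream: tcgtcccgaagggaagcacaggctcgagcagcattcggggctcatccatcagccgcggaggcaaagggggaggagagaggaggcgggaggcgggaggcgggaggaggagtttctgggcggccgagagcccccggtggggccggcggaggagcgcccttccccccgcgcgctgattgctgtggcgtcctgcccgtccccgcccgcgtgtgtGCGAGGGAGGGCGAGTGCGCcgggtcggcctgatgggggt
These 250 bases hold 28 CpG and are 73.6% G and C, against medians of 19 CpG and 63.2% over 14744 RefSeq gene starts. No match of an uPA guide seed with its PAM was found in the 300 bases around this start.

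The inhibitory SMADs differed from each other. SMAD6 (chr15:66994574-67075187, plus strand), which mainly restrains BMP receptors, had 184 reads in DNMT1, 82 in DNMT3A, 75 in DNMT3B, 132 in EGFP and 436 in pUC19, or 4.92, 2.13, 2.21, 3.87 and 9.06 TPM in that order. All 4 fusions lie below pUC19, and DNMT3A and DNMT3B lie below DNMT1 and EGFP, with no overlap of the counting intervals between these 3 levels. Its log2 ratio to pUC19 was -2.04 in DNMT3A (4.10-fold lower, interval -2.38 to -1.71), -1.99 in DNMT3B (3.97-fold lower) and -1.21 in EGFP (2.31-fold lower), all called. In DNMT1 it was -0.87 (1.82-fold lower), under the 2-fold limit. SMAD6 in DNMT3A was the only call of the 10 genes against pUC19 that held when each library was given an added coefficient of variation of 0.2. It was also called lower in DNMT3A and in DNMT3B than in DNMT1, at log2 ratios of -1.17 and -1.12. The fit of the fusions put it 1.08 lower on the log2 scale (SE 0.26, edgeR adjusted p = 0.0319), and 1.26 lower with the correction for GC content and length.

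The bases before the SMAD6 start are shown because they hold the palindrome GTCTAGAC, the sequence selected in vitro by SMAD3 and SMAD4, in capitals at -12 to -5. They were read from RefSeq (GRCh38.p14, chr15:66701986-66702235, plus strand).
SMAD6 upstream: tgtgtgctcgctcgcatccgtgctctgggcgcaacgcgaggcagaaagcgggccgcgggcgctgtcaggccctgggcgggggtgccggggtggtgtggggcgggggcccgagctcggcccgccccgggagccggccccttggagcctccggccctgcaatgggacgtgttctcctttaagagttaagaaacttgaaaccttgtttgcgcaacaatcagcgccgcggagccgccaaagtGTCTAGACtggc
GTCTAGAC was searched on both strands within 250 bases before to 50 after each start and was found at 25 of 14744 starts (0.170%), SMAD6 being the only 1 of the 10 genes. This is a match of letters and not a measured binding site.

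SMAD7 (chr18:46446223-46477335, minus strand), which restrains TGF-beta and BMP receptors alike, was at 15.0 TPM in DNMT1, 8.08 in DNMT3A, 9.60 in DNMT3B, 12.6 in EGFP and 11.0 in pUC19. The pUC19 value lies inside the range of the fusions. SMAD7 was higher than pUC19 in DNMT1, by 0.44 on the log2 scale (interval 0.27 to 0.61), and lower in DNMT3A, by a log2 ratio of -0.44 (interval -0.64 to -0.24). Neither passed 2-fold. The fit of the fusions put it 0.71 lower in DNMT3A and DNMT3B (SE 0.19, edgeR adjusted p = 0.0453). SMAD7 was present at 1.21 times the level of SMAD6 in pUC19 and at 3.05, 3.79, 4.35 and 3.26 times in DNMT1, DNMT3A, DNMT3B and EGFP.

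BAMBI (chr10:28966439-28971861, plus strand), a receptor-like protein without a kinase domain, was at 17.5 TPM in DNMT1, 15.0 in DNMT3A, 12.9 in DNMT3B, 18.2 in EGFP and 19.9 in pUC19. All 4 fusions were below pUC19, but the intervals of DNMT1 and EGFP overlap that of pUC19. The largest log2 ratio was -0.62, in DNMT3B (1.54-fold lower). The fit of the fusions gave -0.41 (SE 0.18, edgeR adjusted p = 0.169).

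The ID genes covered a wide range of levels. In pUC19 ID2 was above 97.8% of the genes with a read and ID3 above 95.8%, whereas ID4 and ID1 were above 67.8% and 61.6%. ID2 (chr2:8818975-8824591, plus strand) was at 166 TPM in DNMT1, 125 in DNMT3A, 129 in DNMT3B, 166 in EGFP and 349 in pUC19. It was lower in every fusion, and the fusions differed among themselves by at most 1.33-fold. The log2 ratio to pUC19 was -1.07 in DNMT1 (2.09-fold lower), -1.48 in DNMT3A (2.79-fold), -1.44 in DNMT3B (2.71-fold) and -1.07 in EGFP (2.09-fold). The median log2 ratio of all genes of at least 1 TPM on average was -0.14 for DNMT1 against pUC19. It was between -0.02 and -0.003 for the other fusions. With TMM scaling, which brings the DNMT1 median to -0.01, ID2 in DNMT1 was at -0.94 and no longer called. In the fit of the fusions ID2 was 0.45 lower in DNMT3A and DNMT3B (SE 0.12, edgeR adjusted p = 0.0485). An exon of ID2-AS1 lies on the opposite strand over ID2, and since the counting was not stated to use strand, reads of the overlap cannot be told apart. ID2-AS1 was not among the genes with a read. The transcripts of ID2 and ID4 are 42.5% and 41.4% G and C, at percentiles 24.4 and 19.9. The part of the GC trend given for TGFBR1 in their ratios to pUC19 was not tested.

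ID4 (chr6:19837601-19842428, plus strand) had a similar profile at a lower level, with 13.3 TPM in DNMT1, 10.0 in DNMT3A, 10.7 in DNMT3B, 15.0 in EGFP and 26.1 in pUC19. All 4 fusions were below pUC19 with no overlap of the intervals. It was called in DNMT3A, at a log2 ratio of -1.37 (2.59-fold lower), and in DNMT3B, at -1.28 (2.42-fold lower). In DNMT1 it was just short of 2-fold, at -0.97 (1.96-fold lower), and it was -0.79 in EGFP. Of all 45 pairs among the 10 genes, ID2 and ID4 had the most similar profiles, with a root mean square difference of 0.089 in centred log2(TPM + 0.1) over the 5 libraries. The next pairs were BAMBI and ID1 (0.133) and SMAD7 and ID1 (0.156). The bases before both starts are shown for this reason (RefSeq, GRCh38.p14, chr2:8681806-8682055 for ID2 and chr6:19837120-19837369 for ID4, plus strand). Capitals mark CAGAC, the SMAD box, found in ID4 only.
ID2 upstream: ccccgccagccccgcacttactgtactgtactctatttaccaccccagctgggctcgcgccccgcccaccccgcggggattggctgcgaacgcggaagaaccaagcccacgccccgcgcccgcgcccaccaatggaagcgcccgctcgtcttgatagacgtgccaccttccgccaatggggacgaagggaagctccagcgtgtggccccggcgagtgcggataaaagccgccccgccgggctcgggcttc
ID4 upstream: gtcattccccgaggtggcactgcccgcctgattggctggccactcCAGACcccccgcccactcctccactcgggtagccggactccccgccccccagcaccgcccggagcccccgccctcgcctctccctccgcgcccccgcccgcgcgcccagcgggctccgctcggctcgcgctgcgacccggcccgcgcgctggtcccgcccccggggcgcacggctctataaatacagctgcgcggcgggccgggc
ID2 has 29 CpG in these 250 bases and ID4 has 34, above the median of 19.

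ID3 (chr1:23884417-23885992, minus strand) was at 211 TPM in DNMT1, 91.3 in DNMT3A, 126 in DNMT3B, 134 in EGFP and 206 in pUC19. Here DNMT1 stood with pUC19, and DNMT3A was lowest. The log2 ratio to pUC19 was 0.03 in DNMT1, -1.18 in DNMT3A (2.26-fold lower, the only call), -0.71 in DNMT3B and -0.62 in EGFP. DNMT3A against DNMT1 gave -1.21 (2.31-fold lower, called). In the fit of the fusions ID3 was 0.74 lower (SE 0.24, edgeR adjusted p = 0.0814), and DESeq2 gave an adjusted p of 0.0158.

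ID1 (chr20:30193086-30194318, plus strand) was the steadiest of the 4, at 21.0 TPM in DNMT1, 15.5 in DNMT3A, 16.0 in DNMT3B, 19.2 in EGFP and 19.2 in pUC19. The level intervals of DNMT3A and DNMT3B overlap that of pUC19. The intervals of their log2 ratios to pUC19 lie below 0, at -0.54 to -0.07 and -0.51 to -0.02. Its log2 ratios to pUC19 ran from -0.31 to 0.13, and the fit of the fusions gave -0.41 (SE 0.19, edgeR adjusted p = 0.191).

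Summed over ID1 to ID4 the level was 412 TPM in DNMT1, 242 in DNMT3A, 282 in DNMT3B, 335 in EGFP and 600.2 in pUC19. ID2 made up 58.1% of that sum in pUC19 and 40.4% to 51.7% in the fusions, and ID3 was the larger part only in DNMT1, at 51.3%. The genes of the E proteins, TCF3, TCF4 and TCF12, summed to 99.0, 106, 106, 91.1 and 108 TPM in the same order, and none of the 3 was called in any comparison with pUC19. The ratio of the sums was 4.16, 2.28, 2.66, 3.67 and 5.54. These are ratios of RNA levels, and no protein was measured here.

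**Figure D4:**
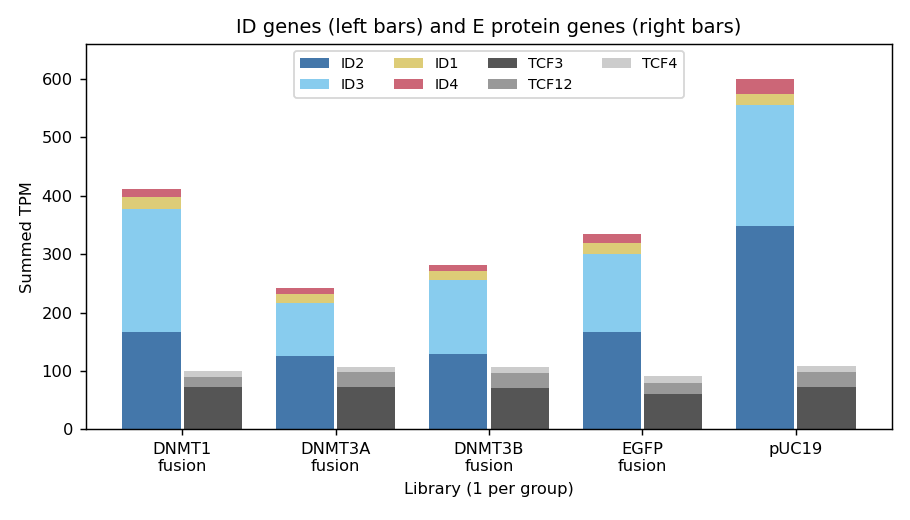
Summed TPM of the ID genes (left bar of each pair) and of the E protein genes TCF3, TCF12 and TCF4 (right bar) in each library, 1 library a group. The ID sum was 600.2 TPM in pUC19 and 242 to 412 TPM in the fusions, and the E protein sum was between 91.1 and 108 TPM in all 5 libraries.

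In the 6 comparisons between fusions, 5 calls were made in all among the 10 genes. DNMT3A was lower than DNMT1 in 3 of the 10 (TGFBR1, SMAD6, ID3), where 1.02% of all genes were called lower. DNMT3B was lower than DNMT1 in 1 (SMAD6, 0.895% of all genes). With a pseudocount of 1 TPM the SMAD6 calls of DNMT3A and of DNMT3B against DNMT1 both ended. DNMT3A was lower than EGFP in 1 (TGFBR1). None of the 10 was called between DNMT1 and EGFP (0.993% of all genes lower), DNMT3B and EGFP (1.51%) or DNMT3A and DNMT3B (0.107%). DNMT3A and DNMT3B differed by a log2 ratio of -0.47 in ID3 and by less in the other genes.

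The 300 bases around each RefSeq start were searched on both strands for the seed of each uPA guide followed by an NGG PAM, written with N for any base. GGGAGNGG, from T2, was found in SMAD7, ID3 and ID4 and at 31.0% of all 14744 starts, and GACCGNGG, from T4, in ID3 and at 6.29% of all starts. GCACGNGG, GTCCCNGG and TGGCCNGG, from T1, T3 and T5, were in none of the 10 genes and at 5.70%, 11.5% and 12.2% of all starts. At least 1 of the 5 was thus present in 3 of the 10 genes and at 50.7% of all starts. Of the 5 genes called lower than pUC19 in at least 1 fusion, ID3 and ID4 had such a match and SMAD6, ID2 and TGFBR1 had none. CAGAC was in 5 of the 10 (TGFBR1, SMAD7, BAMBI, ID3, ID4) and at 44.0% of all starts, and the GC-rich SMAD motif GGCGCC was in BAMBI, at 3 places between -209 and -176, and at 27.1% of all starts. Base composition differed widely, from 40.8% G and C with 7 CpG upstream of TGFBR2 to 81.2% with 41 CpG upstream of BAMBI.

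**Figure D5:**
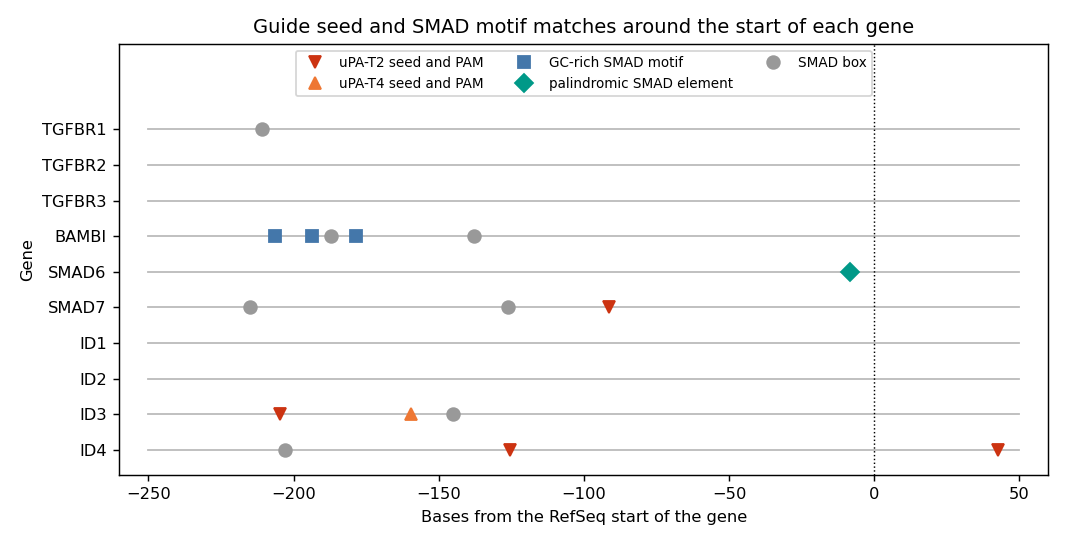
Matches of guide seeds with a PAM and of SMAD motifs from 250 bases before to 50 after the RefSeq start (x axis, bases from the start) of each gene. TGFBR2, TGFBR3, ID1 and ID2 have no match, SMAD6 has the palindrome close to its start, and BAMBI holds the 3 GC-rich motifs.

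For each of the 10 genes the most similar profile over the 5 libraries was sought among about 10933 genes of at least 5 TPM on average, by the same root mean square difference. The nearest were ATP6V1A and PDK3 for TGFBR1, C16orf91 and ENKD1 for TGFBR2, GGPS1 and MFN2 for TGFBR3, AHCY and ADAM11 for BAMBI, KLF15 and GPD1L for SMAD6, and LPP and ARSB for SMAD7. Those for the ID genes were REEP2 and TSC2 for ID1, BIRC2 and C14orf132 for ID2, ALDH1A2 and PNPLA6 for ID3, and HCG18 and VASH1 for ID4. The difference was smallest for REEP2 and ID1, at 0.012, and largest for PNPLA6 and ID3, at 0.114. With 5 libraries this is a description of profiles.

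A further 107 genes of the pathway were set beside the 10, of which GREM1, SOST and HAMP had no row in the tables analysed here. Against pUC19, 3 were called higher and 6 lower in DNMT1 (of 103 with reads), 9 and 14 in DNMT3A (of 102), 7 and 8 in DNMT3B (of 102) and 5 and 11 in EGFP (of 103). The median log2 ratio of those of at least 1 TPM on average was between -0.02 and 0.01 in all 4. It was -0.14 to -0.003 over all genes of at least 1 TPM on average. Of the 104 with reads, 34 (32.7%) were called in at least 1 fusion and 5 (4.81%) in all 4, where 15.0% and 1.62% of all genes were. The list was chosen with earlier results of these data known, so these shares describe it and do not test the pathway.

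Among the ligands, BMP2, BMP6 and BMP8B were called lower in all 4 fusions. BMP2 was at 13.3 TPM in pUC19 and at 3.54 TPM in DNMT1, 5.91 in DNMT3A, 5.10 in DNMT3B and 3.54 in EGFP. BMP6, which with BMP2 signals through SMAD1, SMAD5 and SMAD9, was at 19.7 TPM in pUC19 and at 5.94 to 7.93 TPM in the fusions, and it was the only gene of the list to pass in the fit of the 4 fusions against pUC19 (log2 fold change -1.42, SE 0.24, edgeR adjusted p = 0.0444). BMP8B went from 6.07 TPM to between 2.38 and 2.87 TPM. INHBE, an activin subunit also known as a target of the integrated stress response, was called higher in all 4, from 6.62 TPM in pUC19 to 55.7 TPM in EGFP, 23.8 in DNMT1, 20.1 in DNMT3B and 14.1 in DNMT3A. INHBB, another activin subunit, was called higher in DNMT3A (6.46 TPM) and DNMT3B (5.38 TPM) than in pUC19 (2.48 TPM). GDF15, a distant member of the ligand family, was called higher than pUC19 (0.257 TPM, from 5 reads) in EGFP at 5.37 TPM, DNMT1 at 3.84 and DNMT3A at 1.80, and not in DNMT3B at 1.16. RGMA, a BMP co-receptor, was called lower in DNMT3A, DNMT3B and EGFP, at 4.57, 5.64 and 7.02 TPM against 17.1 TPM, and was at 8.89 TPM in DNMT1.

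Of the 6 further type I receptors 1 was called, lower in DNMT3A, and of the 4 further type II receptors 1, lower in DNMT3B. Both were under 5 TPM in pUC19. Of the 6 signal-carrying SMADs 1 was called. Over all genes 15.0% were called in at least 1 fusion. Of the further type I and type II receptors with at least 5 TPM in pUC19 none was called, among them ACVR1B (25.1 TPM in pUC19, 28.9 to 30.5 in the fusions), BMPR1A (27.5 TPM, 31.3 to 40.1) and BMPR2 (9.97 TPM, 5.70 to 8.25). SMAD1, SMAD2, SMAD3, SMAD4 and SMAD5 were called in none. SMAD9 was called in EGFP, at 54.0 TPM against 26.2 TPM in pUC19. SMURF1, a ubiquitin ligase that works with the inhibitory SMADs, was called higher in DNMT3B (46.2 TPM against 22.2). It was at 43.1 TPM in DNMT3A, just short of 2-fold, 30.9 in EGFP and 23.7 in DNMT1. SMURF1 passed in the fit of the fusions with a log2 fold change of 0.66 (SE 0.13, edgeR adjusted p = 0.0181).

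Among further targets, CDKN1A, the p21 cell cycle inhibitor, was called higher in all 4 fusions, at 42.7 to 65.0 TPM against 20.1 TPM. HES1 was called lower in DNMT3A and DNMT3B (28.3 and 22.3 TPM against 69.9). It was below pUC19 in DNMT1 and EGFP too, at 37.1 and 36.9 TPM, short of a call. SNAI2 was called lower in DNMT1 and EGFP (16.3 and 21.2 TPM against 42.6). It was below pUC19 in DNMT3A and DNMT3B too, at 26.8 and 24.6 TPM, short of a call. FN1, fibronectin, was called lower in DNMT3A (12.4 TPM against 26.3) and was at 16.2, 27.3 and 29.8 TPM in DNMT3B, DNMT1 and EGFP. COL1A1, a collagen gene, was also called lower in DNMT3A (3.87 TPM against 7.97 in pUC19), and was at 5.69, 6.17 and 7.93 TPM in DNMT3B, EGFP and DNMT1. DLX2, a homeobox gene, was called lower in DNMT3A as well, with 528 reads against 1528 and a log2 ratio of TPM of -1.20. In DNMT1, DNMT3B and EGFP it was at 30.5, 22.4 and 22.2 TPM against 41.5 in pUC19, lower but not called. MSX1, another homeobox gene, was called lower in EGFP (11.7 TPM against 23.7), and was at 21.4 to 23.2 TPM in the other fusions. TAGLN, transgelin, was called higher in DNMT3B (5.70 TPM against 2.59). In DNMT3A, DNMT1 and EGFP it was at 4.29, 3.95 and 3.21 TPM, higher but not called. In the fit of DNMT3A and DNMT3B against DNMT1 and EGFP 7 of the 96 listed genes tested passed higher and 6 lower. Over all genes tested 6.90% passed higher and 4.15% lower. The median log2 fold change was -0.02 for the listed genes and -0.01 over all genes. Of the 13 listed TGF-beta targets tested 1 passed higher and 2 lower, FN1 among the lower (log2 fold change -1.05, SE 0.15, edgeR adjusted p = 0.00636). Of the 10 listed BMP targets tested 3 passed higher and 0 lower. These were HEY1 (0.92, SE 0.16, edgeR adjusted p = 0.0104), GATA2 (0.65, SE 0.16, edgeR adjusted p = 0.0367) and MSX2 (0.58, SE 0.13, edgeR adjusted p = 0.0236). MSX2 was at 91.7 TPM in DNMT3A, 89.7 in DNMT3B, 57.0 in DNMT1, 60.2 in EGFP and 45.5 in pUC19, and was called higher than pUC19 in DNMT3A.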

How the data were processed

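Poly(A) RNA of the 5 libraries was fragmented, cDNA of about 240 bp was amplified over 12 PCR cycles and read on an Ion Proton. The authors removed low-quality reads, adaptors and reads under 30 nt, aligned to hg19 RefSeq RNA with tmap (version not given in the sources used here) at up to 3 mismatches, kept unique reads and deposited read counts and TPM per gene, with gene length and percent of the transcript covered by reads. The deposited TPM were checked, and TPM recomputed from the counts and lengths differed by rounding only. Counts were tested with an exact binomial test for each pair of libraries and with edgeR 4.0.16 quasi-likelihood fits (TMM, filterByExpr, R 4.3.3), DESeq2 1.42.0 being an alternative. Ratios are of TPM + 0.1. Promoter sequences came from RefSeq (GRCh38.p14) and gene positions from GENCODE on GRCh37, the same assembly as hg19. All 10 members were named, as were called genes of a list of 107 further pathway genes with at least 5 TPM in either library, and uncalled ones with their values. The members, lists and tests were chosen with earlier results of these data known. The groups have 1 library each and PCR reads are not independent molecules, so p-values of a pair measure read sampling only. With 26.2 to 36.1 M reads a library, 3 reads correspond to 0.083 to 0.114 RPM (reads scaled by the library total). A further marker of the HEK293 list is not reported here.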

Additional observations from a re-analysis of the deposited data

Results flagged for a closer look

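The difference between the de novo methyltransferase fusions and the other fusions was itself past the threshold in 4 of the 10 genes. Over all genes tested in that edgeR fit, 4.15% passed lower and 6.90% higher. With DNMT3A and DNMT3B against DNMT1 and EGFP the edgeR log2 fold change was -0.98 for TGFBR1, -1.08 for SMAD6, -0.71 for SMAD7 and -0.45 for ID2. Against pUC19 the log2 ratios of SMAD7 were 0.44 and 0.20 in DNMT1 and EGFP and -0.44 and -0.19 in DNMT3A and DNMT3B, the interval of the last reaching 0 (-0.39 to 0.0025), and those of TGFBR1 were 0.04 and 0.06 and then -1.05 and -0.70. TGFBR1 separated most cleanly, with 8.33 and 10.6 TPM in DNMT3A and DNMT3B and 17.3 to 18.1 TPM in the other 3 libraries. None of the 4 differences passed once the DNMT3A or the DNMT3B library was left out.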

How the results depend on the processing

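No paired analysis was possible because each group has 1 library. Of 86 counts of members recomputed under an alternative, 63 stayed within 1.5 times the main count. With an added coefficient of variation of 0.2, the members called against pUC19 went from 1, 5, 3 and 2 (DNMT1, DNMT3A, DNMT3B, EGFP) to 0, 1, 0 and 0, and DNMT3A against EGFP, DNMT3A against DNMT1 and DNMT3B against DNMT1 from 1, 3 and 1 to 0 each, while all genes called against pUC19 went from 1006, 1793, 1685 and 1104 to 32, 131, 107 and 58. At 1.5-fold the members called were 3 in DNMT1, 7 in DNMT3B and 4 in EGFP against pUC19 (of 2909, 4163 and 3116 genes called), 4, 2 and 1 in DNMT3A, DNMT3B and DNMT1 against EGFP (of 2462, 2210 and 1237), and 5 and 4 in DNMT3A and DNMT3B against DNMT1 (of 2575 and 2513). Not all of these were lower. TGFBR2 was higher in DNMT3B against pUC19 (log2 ratio 0.64) and in DNMT3A against EGFP (0.80) and DNMT1 (0.67). ID3 was higher in DNMT1 against EGFP (0.65). The others were lower. In DNMT3A against pUC19 TGFBR2 was past 1.5-fold as well, higher by 0.85. TMM scaling left 0 in DNMT1 against pUC19, and a pseudocount of 1 TPM left 0 in DNMT3B against DNMT1. For the 4 fusions against pUC19 the 0 members became 2 with DESeq2 (992 genes in all against 118), 1 with no filter on low counts (252 genes), and 0 to 1 when a fusion library was left out. In the fit of DNMT3A with DNMT3B against the other fusions the 4 members became 2 with no filter (1052 genes against 1694). None was left without DNMT3A or without DNMT3B, when few genes passed at all. DESeq2 passed 6 and the correction for GC content and length 5. The matching counts over all genes are not given here, so neither 6 nor 5 can be read as a stronger result. Signs turned in values near 0. In the 4 fusions against pUC19, SMAD7 went from 0.10 to -0.0189 with the GC and length correction and lay between -0.11 (without DNMT1) and 0.24 when a library was left out, and ID1 went from -0.04 to between -0.17 and 0.0253, above 0 without DNMT3A and without DNMT3B (0.0037). TGFBR3 in the fit of the fusions went from -0.01 to 0.00041 with DESeq2, 0.0050 with no filter, 0.0864 with the GC and length correction, and between -0.14 and 0.15 when a library was left out, above 0 without DNMT3A (0.01) and without EGFP. The cause was not tested in any of these. With 75 to 436 reads a library, SMAD6 has the widest counting intervals of the 10 genes.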
